A study of Mus musculus with 16 samples.

Results

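The mRNAs of 8 genes that the mouse oocyte uses for its coat, its secreted signals and its meiotic arrest were followed in embryos at the 8-cell stage. They were Zp1, Zp2 and Zp3, which encode the glycoproteins of the zona pellucida, Gdf9, Bmp15 and Oosp1, which encode secreted oocyte proteins, the meiotic kinase gene Mos, and Btg4, which encodes an adaptor of mRNA deadenylation. The 8 genes were taken by symbol from a table of 43437 genes, whatever their level. The table holds 16 libraries, each made from 10 embryos or about 80 cells, and its values are FPKM, the fragments of a gene scaled to its length and to the size of the library. Zygotes had been injected with double-stranded RNA against Tfap2c and Tead4 together (DoubleKD), against Tfap2c (Tfap2cKD), against Tead4 (Tead4KD), or against GFP as the control (dsGFP), with 4 libraries in each group.

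Embryos of all groups came from hybrid parents and the labels name no transgene or deletion. Each group held libraries B1 and B2 of cross B, whose mothers were C57BL/6J×DBA/2J hybrids, and libraries A1 and A2 of cross A, whose mothers were C57BL/6J×CBA/J hybrids. Fathers are labelled as C57BL/6J×DBA hybrids in both crosses, with a number in the DBA name that changes between libraries and was not used. The zona itself had been dissolved with acidic Tyrode's solution before lysis, the medium was KSOM for every group, and the mRNA was amplified from its poly(A) tail. The cross may also stand for a day or a batch of work, which cannot be told apart from it here. Whether the 4 libraries of a group were separate matings or cultures is not stated, and the p-values below describe only how much these embryo pools vary, which may be technical.

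The zona pellucida is the glycoprotein shell that surrounds the mammalian egg, binds sperm, and is hardened after fertilization; in mice it is built from ZP1, ZP2 and ZP3. GDF9 and BMP15 are TGF-beta family ligands through which the oocyte instructs the surrounding granulosa cells, MOS keeps the MAP kinase cascade active while the egg waits in metaphase II, and BTG4 brings the CCR4-NOT deadenylase to maternal mRNAs. These mRNAs are made in the growing oocyte, and most of the oocyte's own mRNA is degraded during maturation and the first cleavages, so reads from them in a cleaving embryo report what is left of, or newly added to, that store.

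The 250 bases upstream of the start site are shown for Zp3, Btg4 and Oosp1, the 3 genes whose levels differed most clearly below, because factors of the FIGLA type that switch on zona genes bind E-boxes. The sequences are those of RefSeq for GRCm38.p6, read 5′ to 3′ on the strand of the gene, with every E-box, searched as CANNTG (a palindrome, so that both strands are covered), in capitals. The windows are chr5:135979855-135980104 on the plus strand for Zp3, chr9:51115751-51116000 on the plus strand for Btg4, and chr19:11691052-11691301 on the minus strand for Oosp1. The start that RefSeq's promoter table uses for Btg4 lies inside the span annotated for the gene, which begins further upstream, and which start the embryos use was not tested.
Zp3: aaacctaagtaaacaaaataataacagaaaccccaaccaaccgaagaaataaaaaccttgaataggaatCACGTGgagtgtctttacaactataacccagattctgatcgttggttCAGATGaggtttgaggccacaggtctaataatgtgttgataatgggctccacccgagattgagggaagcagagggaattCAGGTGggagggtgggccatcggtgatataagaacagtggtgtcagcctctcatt
Btg4: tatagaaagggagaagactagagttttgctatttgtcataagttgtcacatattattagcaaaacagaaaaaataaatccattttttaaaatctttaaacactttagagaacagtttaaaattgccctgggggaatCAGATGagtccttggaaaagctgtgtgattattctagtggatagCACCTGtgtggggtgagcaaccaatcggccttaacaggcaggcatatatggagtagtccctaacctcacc
Oosp1: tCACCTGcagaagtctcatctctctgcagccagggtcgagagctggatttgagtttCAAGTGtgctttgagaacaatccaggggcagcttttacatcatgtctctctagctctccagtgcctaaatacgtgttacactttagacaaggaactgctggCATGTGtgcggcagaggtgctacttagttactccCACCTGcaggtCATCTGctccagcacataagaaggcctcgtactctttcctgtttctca

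Zp3 held 3 E-boxes, which began 181, 134 and 55 bases before the start, Btg4 held 2, at 114 and 70 bases, and Oosp1 held 5, at 249, 194, 93, 59 and 48 bases. An E-box is common in this window, being present in 66.2% of 32851 promoters of the same length. None of the 3 windows held the NOBOX element searched as TAATTG or TAATTA (in 11.3% of promoters), the TEAD element GGAATG (12.6%) or the AP-2 element GCCNNNGGC (13.7%), each on both strands, which says only that these letters are not in this window. The Bmp15 window held 1 E-box, 1 NOBOX element and 1 TEAD element, the last of which shares 1 letter with the E-box. RefSeq promoter rows were matched for 4 of the 8 genes. The mRNAs of Figla and Nobox themselves stayed under 1 FPKM in all 16 libraries, and binding to these windows was not tested.

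The genes lie on 7 chromosomes of that assembly: Zp3 at chr5:135980105-135988624, Zp2 at chr7:120126762-120145291, Zp1 at chr19:10914296-10920601, Oosp1 at chr19:11667460-11691051, Gdf9 at chr11:53430774-53437904, Bmp15 at chrX:6314054-6320724, Mos at chr4:3870658-3872105 and Btg4 at chr9:51102147-51119924. Gdf9 shares 58 bases with Uqcrq, a respiratory chain subunit gene that averaged 365 ± 64.4 FPKM in cross B and 299 ± 36.2 FPKM in cross A (SD, n = 8 each). Btg4 overlaps Hoatz by 3688 bases and also spans the loci of Mir34b and Mir34c. Hoatz, listed in the table as 4833427G06Rik, reached at most 0.238 FPKM. Whether the counting used strand is not given in the sources used here, so reads in these overlaps cannot be assigned, while no overlap was annotated for the other 6 genes.

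The injections had lowered their targets. Tfap2c averaged 16.2 ± 0.342 FPKM in DoubleKD and 15.8 ± 1.65 FPKM in Tfap2cKD, against 35.7 ± 6.6 FPKM in dsGFP, and Tead4 averaged 9.49 ± 3.94 FPKM in DoubleKD and 7.66 ± 2.49 FPKM in Tead4KD, against 48.6 ± 7 FPKM in dsGFP (SD, n = 4 each). Tead4 was lower in Tfap2cKD as well, at 28.3 ± 7.77 FPKM (19 to 37.4, against 41.8 to 58.4 in dsGFP), and was called there by the test used below. Tfap2cKD was therefore not a depletion of Tfap2c mRNA alone. In Tead4KD, Tfap2c averaged 34.8 ± 1.67 FPKM. All 14 markers of the 8-cell embryo reached 1 FPKM in every group. Of 18 markers of cumulus and granulosa cells, the cells that surround the egg, 17 stayed under 1 FPKM in all 16 libraries and 7 were listed at 0 throughout. The other one, the anti-Müllerian hormone receptor gene Amhr2, ran from 11 to 29.4 FPKM. The 8 sperm markers summed to at most 1.63 FPKM in any library. FPKM sums ran from 799260 to 874436, and mitochondrially encoded genes took 8.3 ± 1.06% of the FPKM in cross B and 10.3 ± 1.17% in cross A (SD, n = 8 each).

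Only part of the 8 mRNAs was present at an appreciable level. Over all 16 libraries, on the length-scaled FPKM scale, the order was Zp3 (15.1 ± 6.48), Oosp1 (4.93 ± 4.2), Btg4 (4.91 ± 1.88), Gdf9 (1.92 ± 0.729), Bmp15 (0.842 ± 0.352), Zp2 (0.691 ± 0.427), Zp1 (0.482 ± 0.298) and Mos (0.4 ± 0.308; SD, n = 16 each). Each gene's range over the libraries overlapped that of the next one in the order. Zp3 was above Oosp1 in 16 of 16 libraries, whereas Oosp1 was above Btg4 in 7 of 16, and Zp1 above Mos in 10 of 16. Zp3, Oosp1, Btg4 and Gdf9 met the expression filter of at least 1 FPKM in at least 4 libraries, which 11422 genes passed, and the other 4 did not. In dsGFP embryos, 11.4% of the table's genes were at or above Zp3, and 33.1% at or above Mos.

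Zp3 was the zona transcript that dominated these embryos and the member whose level differed between injection groups. In DoubleKD embryos Zp3 had 20 and 21.9 FPKM in the A libraries and 16.1 and 15.4 FPKM in the B libraries, against 10.3 and 5.69 FPKM (A) and 11.5 and 9.82 FPKM (B) in dsGFP embryos. Every DoubleKD library lay above every dsGFP library, and the share of all genes for which this holds was not counted. The difference was 0.93 on the log2(FPKM + 1) scale (SE 0.27), a fold of 1.9 on that scale, and passed the test used throughout, limma with Benjamini-Hochberg adjustment over the 11422 genes (adjusted p = 0.0219). The exact permutation of the 4 and 4 libraries, shuffled without regard to cross, gave p = 0.0286, two-sided, the smallest this shuffling allows. In size it ranked 375 from the top of the 11422 differences.

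The call for Zp3 in DoubleKD embryos depended on single libraries and on the genes tested. It was lost without DoubleKD A2 (0.88, limma adjusted p = 0.0572) and without dsGFP A2, the lowest library (0.67, limma adjusted p = 0.0728). It was also lost with no filter on low values (limma adjusted p = 0.0639). Within the crosses, where each group has 2 libraries, the difference was 0.53 in cross B (limma adjusted p = 0.0607) and 1.33 in cross A (limma adjusted p = 0.0527), so the sign was the same in both.

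In the single knockdowns Zp3 also had a higher mean than in dsGFP embryos, but neither difference passed. Tfap2cKD embryos had 13.2 and 17.7 FPKM (A) and 14.2 and 14.8 FPKM (B), all above the highest dsGFP library at 11.5 FPKM. The share of all genes that separate in this way was not counted here either. The difference was 0.66 (SE 0.27, limma adjusted p = 0.0845, exact permutation p = 0.0286 with cross ignored, n = 4 each). This difference passed without Tead4KD A1 (limma adjusted p = 0.0178), without dsGFP B1 (0.82, limma adjusted p = 0.0499) or with only the 2 groups in the fit (limma adjusted p = 0.037), and without dsGFP A2 it was 0.4 (limma adjusted p = 0.271). Within the crosses it was 0.41 in cross B (limma adjusted p = 0.0874) and 0.91 in cross A (limma adjusted p = 0.151). Tead4KD embryos had 34.1 and 15 FPKM (A) and 10.5 and 11.6 FPKM (B), so that B1 lay within the dsGFP range, B2 just above its top, and A1 far above the others. The Tead4KD difference was 0.75 (SE 0.27, limma adjusted p = 0.122; exact permutation p = 0.0571, n = 4 each). Without Tead4KD A1 it was 0.41 (limma adjusted p = 0.285) and without dsGFP A2 it was 0.49 (limma adjusted p = 0.328), and within the crosses it was 0.05 in cross B (limma adjusted p = 0.908) and 1.45 in cross A (limma adjusted p = 0.106). DoubleKD embryos did not pass against Tfap2cKD (0.27, limma adjusted p = 0.816) or against Tead4KD embryos (0.18, limma adjusted p = 0.687), and the departure of the double knockdown from the sum of both single ones was -0.48 (limma adjusted p = 0.686). The 3 knockdown comparisons share the dsGFP libraries, and Tead4 mRNA was lower in Tfap2cKD embryos too.

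Zp1 and Zp2, whose products form the zona fibrils together with ZP3, were near the bottom of the detectable range. Zp1 was 0.878 and 0.681 FPKM (A) and 0.588 and 0.139 FPKM (B) in DoubleKD, 0.893 and 0.234 (A) and 0 and 0.499 (B) in Tfap2cKD, 0.429 and 0.568 (A) and 0.073 and 0.269 (B) in Tead4KD, and 0.917 and 0.784 (A) and 0.474 and 0.286 (B) in dsGFP embryos. All groups overlapped, and the exact permutation p against dsGFP was 0.83, 0.4 and 0.171 for DoubleKD, Tfap2cKD and Tead4KD (n = 4 each). Zp2 ran from 0.189 to 1.05 FPKM in DoubleKD, 0.418 to 1.13 in Tfap2cKD, 0.289 to 0.878 in Tead4KD and 0.281 to 1.94 in dsGFP embryos, again with overlap throughout. Its exact permutation p was 0.457, 0.686 and 0.743 in the same order (n = 4 each). Zp3 made up a median of 95% of the summed FPKM of the 3 zona genes in DoubleKD, 93.5% in Tfap2cKD and 94.7% in Tead4KD, against 88.7% in dsGFP libraries, where it ran from 67.6% to 94.5%. The 3 zona mRNAs therefore stood at unequal levels in all 16 libraries, Zp3 being the highest in each.

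**Figure D1:**
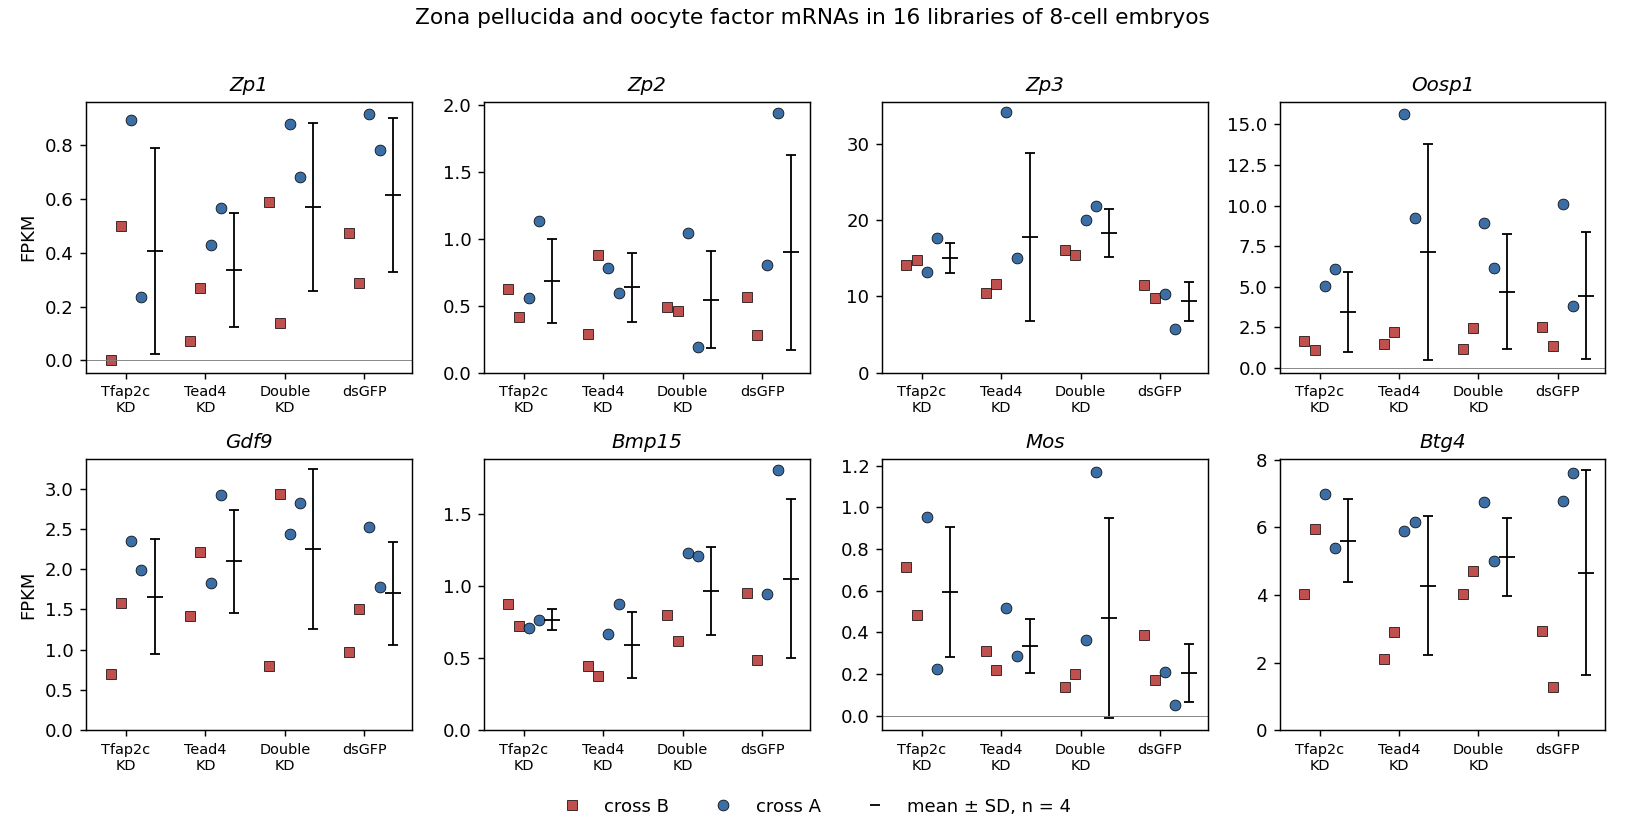
FPKM of the 8 genes (vertical axes, a scale for each gene) by injection group, with 1 symbol for each library, squares for cross B and circles for cross A, and bars for the mean ± SD of the 4 libraries. The Zp3 symbols of DoubleKD and Tfap2cKD lie above all dsGFP symbols, and the Oosp1 squares lie below the circles in every group.

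No difference of a secreted oocyte factor between injection groups passed the test. Gdf9, the ligand that drives cumulus expansion, had 2.43 and 2.82 FPKM (A) and 0.797 and 2.94 FPKM (B) in DoubleKD embryos, against 2.52 and 1.78 FPKM (A) and 0.977 and 1.51 FPKM (B) in dsGFP embryos. Its group means were 2.25 ± 0.99 FPKM in DoubleKD, 1.66 ± 0.713 FPKM in Tfap2cKD and 2.1 ± 0.641 FPKM in Tead4KD, against 1.7 ± 0.644 FPKM in dsGFP embryos (SD, n = 4 each). The differences of 0.23, -0.04 and 0.21 were within about 1 SE of zero (SE 0.22; limma adjusted p = 0.492, 0.926 and 0.677). Bmp15, the X-linked partner of Gdf9, averaged 0.964 ± 0.304 FPKM in DoubleKD, 0.766 ± 0.074 FPKM in Tfap2cKD and 0.591 ± 0.227 FPKM in Tead4KD, against 1.05 ± 0.55 FPKM in dsGFP embryos. Its highest library was dsGFP A2 at 1.81 FPKM, and the exact permutation p was 0.886, 0.514 and 0.143 (n = 4 each). Every group overlapped the control for both ligands.

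Oosp1, a secreted protein made in oocytes, varied widely within each injection group. It had 8.93 and 6.17 FPKM (A) and 1.15 and 2.48 FPKM (B) in DoubleKD, 5.04 and 6.06 (A) and 1.65 and 1.07 (B) in Tfap2cKD, 15.7 and 9.21 (A) and 1.48 and 2.17 (B) in Tead4KD, and 10.1 and 3.81 (A) and 2.54 and 1.32 (B) in dsGFP embryos. In every group both A libraries stood above both B libraries, and the injection groups overlapped. With the cross in the model, the differences from dsGFP were 0.07, -0.23 and 0.4 (SE 0.28; limma adjusted p = 0.888, 0.592 and 0.47 for DoubleKD, Tfap2cKD and Tead4KD).

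Mos, whose protein is destroyed once the egg is activated, was the scarcest of the 8. It ran from 0.139 to 1.17 FPKM in DoubleKD, 0.222 to 0.954 in Tfap2cKD and 0.219 to 0.517 in Tead4KD, against 0.0531 to 0.386 in dsGFP embryos, and only DoubleKD A2 exceeded 1 FPKM. The exact permutation p was 0.429, 0.0571 and 0.229 (n = 4 each), and each knockdown overlapped the control. Btg4 had 6.76 and 5 FPKM (A) and 4.03 and 4.7 FPKM (B) in DoubleKD, 6.99 and 5.4 (A) and 4.03 and 5.96 (B) in Tfap2cKD, 5.89 and 6.17 (A) and 2.11 and 2.91 (B) in Tead4KD, and 6.78 and 7.61 (A) and 2.94 and 1.29 (B) in dsGFP embryos. The control held both the highest and the lowest Btg4 library of the study. Its differences from dsGFP were 0.29, 0.39 and 0 (SE 0.25; limma adjusted p = 0.435, 0.257 and 0.998).

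The counts of called genes are set here against those of the whole table. In DoubleKD embryos 1 of the 4 genes tested was called, where 25.1% of all genes tested were called. In Tfap2cKD embryos 0 of 4 were called by limma, where 29.6% of all genes were. In Tead4KD embryos it was 0 of 4, where 6.13% were. At an unadjusted limma p under 0.05 the count was 1 in both, Zp3. Of the 11422 genes tested, 4580 in Tfap2cKD and 2415 in Tead4KD were under that unadjusted p. For DoubleKD against Tfap2cKD (0.14% of genes called), DoubleKD against Tead4KD (23.7%) and the non-additive part (0.753%), limma called 0 of 4. Under an unadjusted limma p of 0.05 it was 0 of 4 as well, where 1087, 4081 and 1369 of all genes tested were, in that order. These counts cover the genes that passed the filter and say nothing of the other 4.

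**Figure D2:**
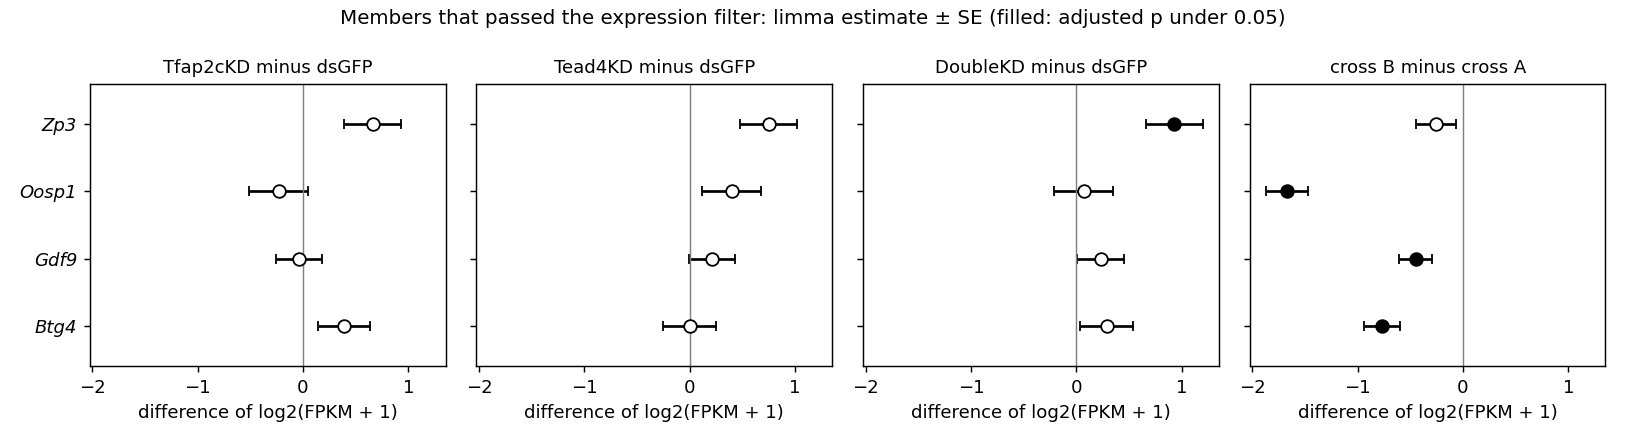
Estimates from limma for the 4 genes that passed the filter (rows), as differences of log2(FPKM + 1) on the horizontal axes, with bars of 1 SE. Points are filled where the adjusted p is under 0.05, which holds for Zp3 in DoubleKD against dsGFP and for Oosp1, Gdf9 and Btg4 in cross B against cross A.

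The widest difference among the 4 genes tested, that of Oosp1, lay between the crosses. Oosp1 ran from 1.07 to 2.54 FPKM in cross B with a median of 1.57, against 3.81 to 15.7 FPKM in cross A with a median of 7.55. No library of cross B reached the lowest of cross A, a separation that was not counted over all genes. Its mean was 1.73 ± 0.588 FPKM in cross B and 8.12 ± 3.75 FPKM in cross A (SD, n = 8 each), a difference of -1.67 (SE 0.2, a fold of 0.315 on the log2(FPKM + 1) scale; limma adjusted p = 3.47e-05). The exact permutation p, with the injection group ignored, was 0.000155 (n = 8 each), the smallest this shuffling allows. The difference ranked 25 from the lowest of 11422. In bulk RNA, fewer cells that hold a transcript and less of it in each cell cannot be told apart.

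Btg4 was lower in cross B as well, with a narrower margin. It ran from 1.29 to 5.96 FPKM in cross B (median 3.49), against 5 to 7.61 FPKM in cross A (median 6.46). The crosses overlapped through B2 of the Tfap2cKD group, which lay among the A libraries. The difference was -0.77 (SE 0.17, a fold of 0.587; limma adjusted p = 0.00369; exact permutation p = 0.000777, n = 8 each). It ranked 285 from the lowest.

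Gdf9 ran from 0.697 to 2.94 FPKM in cross B (median 1.46), against 1.78 to 2.92 FPKM in cross A (median 2.39), so the highest library of all was one of cross B, DoubleKD B2. The difference of -0.45 (SE 0.16) passed narrowly (limma adjusted p = 0.0412; exact permutation p = 0.0163, n = 8 each). The call was lost with no filter on low values (limma adjusted p = 0.095). It was lost, too, when Tfap2cKD A1, A2 or B1 was left out (limma adjusted p = 0.0738, 0.0623 and 0.0833), Tead4KD A2 or B1 (limma adjusted p = 0.0753 and 0.0723), DoubleKD A1, A2 or B1 (limma adjusted p = 0.0549, 0.0703 and 0.079), or dsGFP A1 or B1 (limma adjusted p = 0.0788 and 0.0783). The overlap with the abundant Uqcrq, whose mean was higher in cross B, bears on Gdf9 alone among these genes, and its part in the value was not tested.

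The other 5 genes also had lower means in cross B than in cross A, and the share of all genes with a lower mean was not counted. Within dsGFP embryos Zp3 (10.7 and 8.01 FPKM in cross B and cross A) and Mos (0.279 and 0.131) went the other way. So did Bmp15 (0.798 and 0.734 FPKM) and Mos (0.6 and 0.588) within Tfap2cKD. In the remaining injection groups the mean of each of these genes was lower in cross B. Zp3 averaged 13 ± 2.4 FPKM in cross B and 17.3 ± 8.58 FPKM in cross A, and the difference of -0.26 did not pass (limma adjusted p = 0.331). Zp1 ran from 0 to 0.588 FPKM in cross B and from 0.234 to 0.917 FPKM in cross A, a difference of -0.38 with an exact permutation p of 0.0087 (n = 8 each). For Bmp15 the means were 0.66 ± 0.211 and 1.02 ± 0.381 FPKM in cross B and cross A (difference -0.28, exact permutation p = 0.023, n = 8 each). Zp2 averaged 0.501 ± 0.194 FPKM in cross B and 0.881 ± 0.519 FPKM in cross A (difference -0.29, exact permutation p = 0.0685), and Mos 0.328 ± 0.195 and 0.472 ± 0.392 FPKM (difference -0.12, exact permutation p = 0.424; n = 8 each). These exact p-values are unadjusted and come from 32 such tests, 8 genes in 4 comparisons. On the log2(FPKM + 1) scale differences below 1 FPKM are compressed.

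Of the 4 genes that passed the filter, 3 were called between the crosses, all 3 lower in cross B. Among all genes tested, 33.5% were called between the crosses and 16.3% were called lower in cross B. Oosp1 and Btg4 passed in each of 23 alternative fits, with adjusted p from limma of 1.4e-05 to 0.00027 and of 0.00198 to 0.0125. The size of the differences moved with the pseudocount: with 0.1 in place of 1 they were -2.11 for Oosp1, -0.95 for Btg4 and -0.7 for Gdf9, and with 5 they were -0.92, -0.43 and -0.18, all with an adjusted p under 0.05.

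The cross differences were also looked at within each injection group, where each cross has 2 libraries. Oosp1 averaged 1.81 FPKM in cross B and 7.55 in cross A among DoubleKD embryos, 1.36 and 5.55 in Tfap2cKD, 1.83 and 12.4 in Tead4KD, and 1.93 and 6.95 in dsGFP. It was the one gene of the 8 for which both B libraries lay below both A libraries in all 4 groups. For Btg4 this held in 3 groups, with 4.37 FPKM in cross B and 5.88 in cross A for DoubleKD, 2.51 and 6.03 for Tead4KD, and 2.12 and 7.2 for dsGFP, while in Tfap2cKD the means were 5 and 6.2 FPKM and the libraries overlapped. It held for Zp1 in 3 groups, for Zp3, Gdf9 and Bmp15 in 2, and for Zp2 and Mos in 1. How many of all genes separate in this way was not counted, so these counts are a description. Of all genes tested, 33.5% were called between the crosses.

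A model with a group by cross interaction asked whether the response to an injection differed between crosses. limma called 0 of 11422 genes for the DoubleKD, Tfap2cKD and Tead4KD responses (0% each), with 1284, 1888 and 797 genes at an unadjusted p under 0.05. Among the 4 genes tested, 1 was under that unadjusted p for each response. For Btg4 the responses were higher in cross B than in cross A by 1.1 for DoubleKD (limma adjusted p = 0.304) and by 1.17 for Tfap2cKD (limma adjusted p = 0.167). For Zp3 the Tead4KD response was -1.4 in cross B relative to cross A (limma adjusted p = 0.563), and without Tead4KD A1 it was -0.83 (limma adjusted p = 0.782).

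Other mRNAs known from the oocyte were compared between the crosses as well. Of 41 other oocyte transcripts, 28 were tested, of which 10 were lower in cross B and 1 was higher, with a median difference of -0.16 against 0.01 over all genes tested, of which 16.3% were called lower in cross B. The lower ones included the deubiquitinase gene Uchl1 (11 FPKM in cross B and 45.9 in cross A; -1.96, limma adjusted p = 5e-04), the NLRP family gene Nlrp4c (4.55 and 9.86 FPKM; -0.95, limma adjusted p = 0.000124) and the histone chaperone gene Npm2 (11.8 and 18.8 FPKM; -0.7, limma adjusted p = 0.00052). Gtsf1, a piRNA pathway gene picked after its values were seen, had 10.9 FPKM in cross B and 31.1 in cross A (-1.48, limma adjusted p = 7.07e-05). The one higher in cross B was Khdc3, a subcortical maternal complex gene, at 64.4 and 47.4 FPKM (0.44, limma adjusted p = 0.0379).

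Markers of the 8-cell and the 2-cell embryo that were called between the crosses were higher in cross B. Of the 14 markers of the 8-cell embryo, 7 were higher in cross B and 0 lower, with a median difference of 0.36, where 17.2% of all genes tested were called higher in cross B. These 7 were Cdh1, Dab2, Krt18, Tfcp2l1, Sall4, Fgfr2 and Krt8. Of 11 markers of the 2-cell stage, 7 were tested, of which 5 were higher in cross B and 0 lower, against the same 17.2%. Zscan4d, among the 5, reached 1 FPKM in no cross A library. It passed the filter only through cross B, so its call is no separate support. The summed level of the 11 was 15.1 to 385 FPKM in cross B and 4.52 to 16.7 FPKM in cross A, with the 385 in DoubleKD B1. Summed over 18 markers, cumulus cell transcripts were 11.3 to 30.2 FPKM in cross B and 15.1 to 25.9 in cross A, and nearly all of it was Amhr2. The part of these markers, or of the mitochondrial share, in the cross differences of the 8 genes was not tested.

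**Figure D3:**
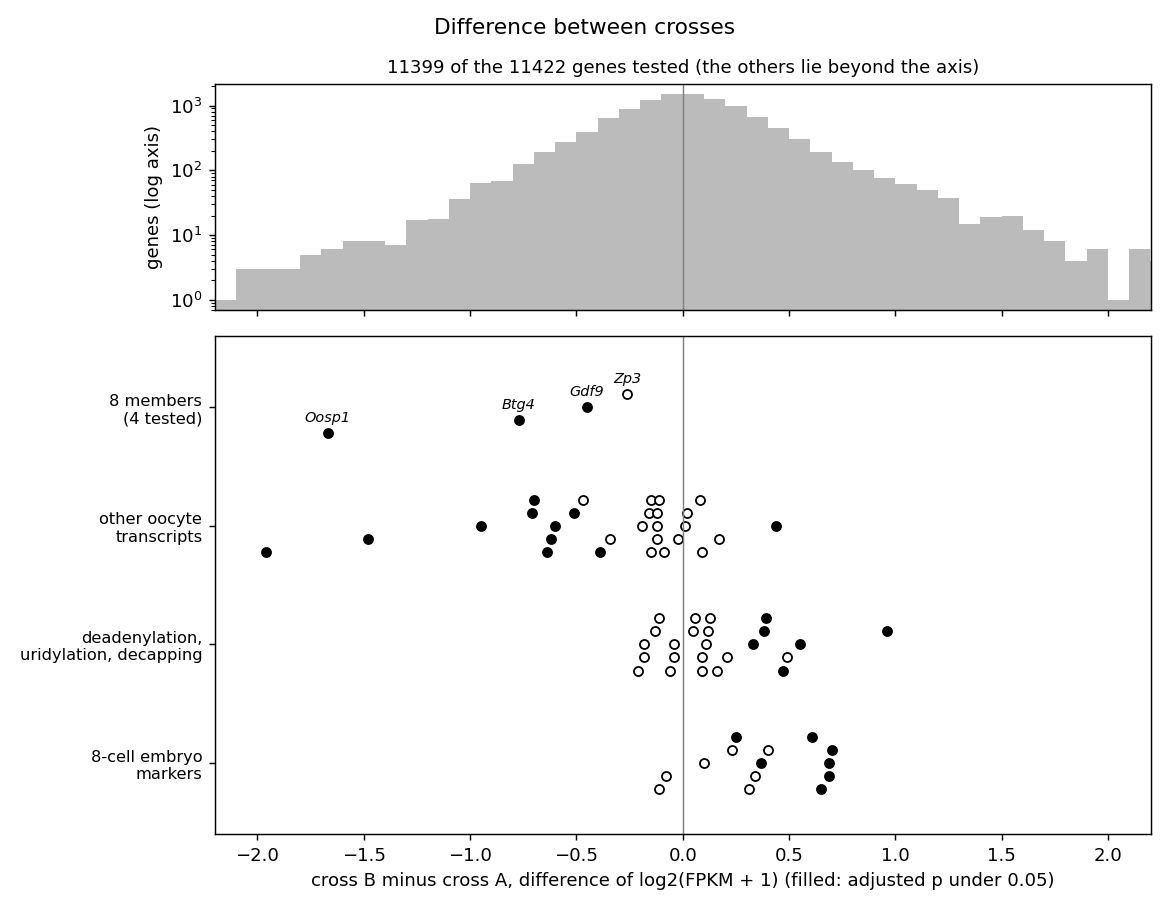
Difference of log2(FPKM + 1), cross B minus cross A (horizontal axis), for the genes tested (upper panel, number of genes on a log axis) and for each gene of 4 sets (lower panel, 1 symbol for each gene, filled where the adjusted p is under 0.05). Oosp1 at -1.67 and Btg4 at -0.77 lie in the left tail, 10 of 28 other oocyte transcripts are filled to the left of zero, and all 7 filled 8-cell markers lie to the right.

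Relatives of the zona and secreted proteins were few. Of 9, 4 passed the filter. Of these 4, 1 was called in Tfap2cKD embryos, where 29.6% of all genes tested were called. Between the crosses 1 was higher in cross B and 2 were lower, where 17.2% and 16.3% of all genes were. Cd9, the egg surface tetraspanin needed for sperm fusion, was lower in Tfap2cKD embryos, at 812 FPKM against 1030 FPKM in dsGFP (-0.34, limma adjusted p = 0.0283), and higher in cross B, at 1030 FPKM against 818 FPKM in cross A (0.32, limma adjusted p = 0.00581). Bmp6, an oocyte BMP ligand, was lower in cross B (2.02 FPKM, against 2.87 in cross A; -0.36, limma adjusted p = 0.0248), and so was the Oosp1 relative Oosp3 (0.821 FPKM, against 1.57; -0.47, limma adjusted p = 0.0189), which was named after its values were seen. No gene of this list was called in DoubleKD or Tead4KD embryos, where 25.1% and 6.13% of all genes tested were called.

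For the receptors and SMADs that carry GDF9 and BMP15 signals, 10 of 17 genes were tested. In DoubleKD embryos 2 were higher and 2 lower than in dsGFP, in Tfap2cKD 1 and 1, and in Tead4KD 0 and 0. Of all genes tested, 25.1%, 29.6% and 6.13% were called in these comparisons. With 10 genes tested, the list's higher share in DoubleKD rests on few genes, Smad3 among them. The inhibitory Smad7 averaged 4.64 FPKM in DoubleKD and 4.96 FPKM in Tfap2cKD, against 1.93 FPKM in dsGFP (0.78 and 0.94, limma adjusted p = 0.023 and 0.0074). The effector Smad3 averaged 0.384 and 0.297 FPKM, against 1.26 FPKM (-0.61 and -0.69, limma adjusted p = 0.0296 and 0.0139). Smad3 reached 1 FPKM only in cross B libraries of dsGFP and Tead4KD. It thus passed the filter only through libraries where it was high, and its calls, included in these counts, are no separate support. The type I receptor Tgfbr1 was lower in DoubleKD (1.45 FPKM, against 2.36; -0.45, limma adjusted p = 0.0269) and the type II receptor Bmpr2 was higher (1.76 FPKM, against 1.04; 0.42, limma adjusted p = 0.0312). The list's median was -0.01 in DoubleKD and -0.03 in Tfap2cKD, against 0.05 and 0.06 over all genes. Between the crosses 3 of the 10, Smad3 among them, were higher in cross B and 1 was lower. Of all genes tested, 17.2% were called higher in cross B and 16.3% lower.

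Of 16 other genes of the MOS to MAP kinase cascade and of metaphase arrest, 14 were tested, while Rps6ka2 and Fbxo43 stayed under 1 FPKM in all libraries. Against dsGFP, 1 of the 14 was called in each knockdown, where 25.1% of all genes tested were called in DoubleKD, 29.6% in Tfap2cKD and 6.13% in Tead4KD. Fbxo5, which encodes the anaphase-promoting complex inhibitor EMI1, was lower in DoubleKD (31.8 FPKM, against 66.9 in dsGFP; -1.05, limma adjusted p = 1.85e-06) and in Tfap2cKD (27 FPKM; -1.27, limma adjusted p = 2.75e-07). Bub1, a spindle checkpoint kinase gene, was the one called in Tead4KD (14.8 FPKM, against 20.1; -0.43, limma adjusted p = 0.0384). No other gene of the list was called in these 3 comparisons. Between the crosses 2 were higher in cross B, Rps6ka1 and Fbxo5, where 17.2% of all genes tested were called higher. The 1 lower, where 16.3% of all genes were, was cyclin B1 (Ccnb1, 1360 FPKM in cross B and 1620 in cross A, -0.26, limma adjusted p = 0.00244).

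Of 25 genes of deadenylation, uridylation and decapping, the machinery that BTG4 recruits or resembles, 24 were tested. In DoubleKD embryos 7 were higher than in dsGFP and 0 lower, with a median difference of 0.22 against 0.05 over all genes, of which 25.1% were called and 13.9% were called higher. In Tfap2cKD 8 were higher and 0 lower (median 0.24 against 0.06), where 29.6% of all genes were called and 16.3% were called higher, and in Tead4KD 2 were higher and 2 lower, where 6.13% were called. The share called in either direction was thus near that of all genes in DoubleKD and Tfap2cKD. Tob2, counted as higher in both, reached 1 FPKM in no dsGFP or Tead4KD library, so it passed the filter only through groups where it was high. The antiproliferative adaptor Tob1, of the same protein family as BTG4, averaged 2.15 FPKM in DoubleKD and 2.54 FPKM in Tfap2cKD, against 0.626 FPKM in dsGFP (0.96 and 1.1, limma adjusted p = 0.000113 and 2.82e-05). The deadenylase gene Cnot7 averaged 137 and 139 FPKM, against 110 FPKM (0.31 and 0.33, limma adjusted p = 0.028 and 0.0185). Btg1, another family member, was lower in Tead4KD (12 FPKM, against 29.1; -1.2, limma adjusted p = 0.0117). Between the crosses 6 of the 24 were higher in cross B and 0 lower, where 17.2% of all genes were called higher, while Btg4 was lower.

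With injection, the other oocyte transcripts were called in both directions. In DoubleKD 4 of the 28 tested were higher and 2 lower than in dsGFP, in Tfap2cKD 3 and 3, and in Tead4KD 2 and 0. Of all genes tested, 25.1%, 29.6% and 6.13% were called in these comparisons. The list's share was near that of all genes in DoubleKD and Tead4KD and a little below it in Tfap2cKD. Uchl1 averaged 41.1 FPKM in DoubleKD and 49.6 FPKM in Tfap2cKD, against 7.12 FPKM in dsGFP (2.29 and 2.14, limma adjusted p = 0.00233 and 0.00328), and Npm2 18.5 and 18.8 FPKM, against 12.2 FPKM (0.59 and 0.64, limma adjusted p = 0.0175 and 0.0102). The maternal factor Dppa3 (Stella) was lower, at 6400 and 6090 FPKM, against 8270 FPKM (-0.37 and -0.45, limma adjusted p = 0.00193 and 0.000428). Amhr2 was higher in Tfap2cKD (24.9 FPKM, against 16.5; 0.59, limma adjusted p = 0.0322), and the 2-cell gene Zfp352 in DoubleKD (13.8 FPKM, against 4.41; 1.31, limma adjusted p = 0.0034). Of the 11422 genes tested, 1289 were called lower in DoubleKD, 1511 in Tfap2cKD and 317 in Tead4KD. Of the 14 markers of the 8-cell embryo, 9 were lower in DoubleKD, 9 in Tfap2cKD and 3 in Tead4KD, and 0 were higher, counts that include the targeted genes. The part of these genes in the Zp3 difference was not tested.

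The 4 genes tested did not move as one across libraries. Pearson's r of log2(FPKM + 1) over the 16 libraries was 0.63 for Btg4 with Oosp1, 0.61 for Gdf9 with Oosp1, 0.46 for Zp3 with Oosp1, 0.44 for Gdf9 with Btg4, 0.23 for Zp3 with Btg4 and 0.17 for Zp3 with Gdf9. The libraries share the injection groups and the crosses, so these values are a description. The genes whose pattern was most like that of Oosp1 were Gm12463 (r = 0.95), Kifc2 (0.91) and Ldhb (0.9), and those most like Btg4 were Cdc25b (0.9), Slc35f2 (0.9) and Ermp1 (0.88). For Zp3 they were Snhg6 (0.88), Dusp2 (0.84) and Psph (0.79), and for Gdf9 they were Sumf2 (0.85), Rpl12 (0.82) and Ppid (0.82). All 12 of these genes had a lower mean log2 level in cross B, from -1.86 for Gm12463 to -0.11 for Snhg6. They were picked for likeness to genes whose own means were lower in cross B, so this direction is no separate support.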

How the data were processed

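Per the labels' protocols, poly(A) RNA of 10 embryos was reverse transcribed with SuperScript II, amplified by a Smart-seq2 procedure and made into libraries with a TruePrep V2 kit. CASAVA, Trim Galore, STAR, Cufflinks and mm10 are named in the submitters' processing notes, while order, versions, annotation and strand setting were not found in the sources used here. Deposited by the authors was 1 FPKM value for each gene and library, already corrected for length and library size. No counts or library totals were used here, so the absolute depth behind a value is unknown, no counting interval is given, and the scatter of the libraries is the measure of precision. Ratios of low values between libraries gave a relative depth of 0.875 to 1.12, which is approximate, since 19.3% to 26.5% of the ratios lay at the peak.

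The 43496 lines held 59 repeated identifiers, whose values were summed, and 0 columns were of other samples. Genes that reached 1 FPKM in 4 or more of the 16 libraries were fitted as log2(FPKM + 1) with limma 3.58.1 in R 4.3.3 (eBayes with a trend), with terms for group and cross, and Benjamini-Hochberg adjustment over the 11422 genes. A second fit added their interaction. Genes that failed the filter were compared by exact permutation of libraries over the mean log2(FPKM + 1), two-sided. Libraries were shuffled freely, without regard to cross, or to injection group where the crosses were compared. The same test for the 4 genes that passed was added after the data were seen. Simulated data with known changes were used to check the fit.

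Members and gene lists were chosen with earlier results of these data known. List genes were named by lowest adjusted p against dsGFP (up to 5) and highest dsGFP level (3), from which the text takes those a result turns on, and the genes most alike by Pearson's r over 16 libraries (3 for each gene tested). Alternatives were other pseudocounts, filters, scalings and variance settings, fits without the cross, with a replicate block, within crosses or with the compared groups alone, and leaving out each library. Promoter sequences and locations are RefSeq's for GRCm38.p6.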

Additional observations from a re-analysis of the deposited data

How the results depend on the processing

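In DoubleKD against dsGFP, where 1 gene was called (Zp3), the count was 0 with no filter on low values, 0 within cross A and 0 within cross B, and ran from 0 to 1 when single libraries were left out (0 without DoubleKD A2 or dsGFP A2). In Tfap2cKD against dsGFP, where 0 were called, it was 1 (Zp3) with only the groups compared in the fit, and ran from 0 to 1 when single libraries were left out (1 without Tead4KD A1 or dsGFP B1). With no filter more low genes enter the adjustment, and within a cross each group has 2 libraries; for the single libraries the cause was not tested. The other 251 recomputed counts of called genes kept their value within 1.5 times, and many of them were 0 in the main fit. Loss of the Gdf9 call lowered the count between the crosses but stayed within this margin. No difference of a gene that was called changed sign. Zp3 in DoubleKD passed in 23 of 28 alternatives (0.53 to 1.33, limma adjusted p = 0.00268 to 0.0728), and Gdf9 between the crosses in 12 of 23 (limma adjusted p = 0.0103 to 0.095).

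Replicate numbers showed no clear pairing of the libraries. Deviations of same-numbered libraries from the means of group and cross correlated at -0.165 to 0.176, above 0.1 in 4 of 24 pairs. With 2 libraries in each group and cross these deviations mirror each other, so every value appears again under the other number of its cross. By deviations from the group mean, which still hold the cross difference, 6 of 16 libraries were closest to their own number. With the number as a replicate block, DoubleKD kept 1 called gene, Zp3 (0.93, limma adjusted p = 0.0291), Tfap2cKD and Tead4KD 0, as did DoubleKD against Tfap2cKD, against Tead4KD and the non-additive part. The control group has 4 libraries, so an exact permutation p against it, with cross ignored, cannot fall below 0.0286. Without counts, the levels below 1 FPKM of Zp1, Zp2, Bmp15 and Mos carry an unknown counting error.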
